A study of Mus musculus with 7 samples.

Results

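The 9 Wnt ligand genes Wnt2, Wnt3, Wnt4, Wnt5a, Wnt5b, Wnt7a, Wnt7b, Wnt9a and Wnt10a were read in mouse hippocampus as the rows of a table of raw read counts whose Ensembl IDs carry these symbols in GENCODE M21. They are 9 of the 19 Wnt ligand genes of the mouse and 9 of 39017 gene rows, and they were chosen by their bound and unbound counts in this table. Their bound and unbound values are therefore a description with no test. The libraries were made by TRAP, translating ribosome affinity purification: ribosomes that carry an EGFP-tagged protein L10 are pulled down together with their RNA. Bound libraries (n = 3, titled GAD_ctrl) hold the RNA pulled down, and unbound libraries (n = 4) hold RNA that was not.

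Per the labels, mice with Gad2-driven Cre were crossed to mice with the Cre-dependent L10-EGFP tag, and tissue of 2 hippocampi was combined for a TRAP sample. Gad2 makes GABA and marks GABAergic neurons, so the tag reports cells in which Gad2-Cre acted at any time. Age and sex are not given, and the treatment label says only bound or unbound. The GAD_ctrl prefix is not explained. Only the bound libraries carry it, so anything it stands for cannot be told apart from the difference between the groups. No label says that each library came from different animals, so the p-values given below cover differences among these libraries, which may be technical. The unbound titles form 2 series of unexplained meaning, UBS (unbound replicates 1 and 2) and UBGS (unbound replicates 3 and 4).

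Wnt proteins are secreted ligands that carry a lipid, attached by Porcupine (Porcn) at a conserved serine, and that leave the cell on the carrier Wntless (Wls). They bind Frizzled receptors together with Lrp5 and Lrp6 to stabilise beta-catenin, or act through Ror and Ryk receptors and the planar cell polarity proteins without it. In the hippocampus, Wnt signals are known for their part in dendrite growth, synapse assembly and the birth of granule cells in the adult dentate gyrus.

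The site that gives a Wnt protein its lipid is shown for all 9 genes because it is the sequence feature they share as ligands. Each run is the 24-base stretch of the reference coding sequence (GRCm38, GENCODE M21) around the codon of the acylated serine, read 5′ to 3′ on the coding strand, with that codon in capitals.
Wnt7a: tgccatggtgtgTCAggctcctgt
Wnt7b: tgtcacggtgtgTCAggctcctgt
Wnt5a: tgtcatggagtgTCTggctcctgt
Wnt5b: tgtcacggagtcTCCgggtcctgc
Wnt9a: tgccatggtgtgTCTggctcctgc
Wnt4: tgtcacggggtgTCGggctcctgc
Wnt2: tgtcatggtgtgAGTggctcctgt
Wnt3: tgccacgggttgTCCggcagctgc
Wnt10a: tgccacggcaccTCAggcagctgc
The 9 stretches were identical at 11 of 24 positions and encoded 3 different 8-residue peptides. The serine is written with 5 different codons, and Wnt2 alone uses AGT. Compared with Wnt7a, the other 8 stretches matched at 16 (Wnt10a) to 22 (Wnt7b and Wnt9a) of 24 bases. Each stretch lay within 1 coding exon, exon 4 of 4 for Wnt7a at chr6:91366272-91366295 and exon 4 of 4 for Wnt7b at chr15:85537812-85537835, both on the minus strand. Over whole transcripts the longest identical run between any pair was 29 nt, shared by Wnt5a and Wnt5b. Wnt7a and Wnt7b shared at most 23 nt, and 0 of 36 pairs shared a run of 50 nt. The read length is not known from the labels.

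All 9 ligands passed the filter on low counts. In 3 of them (Wnt7a, Wnt5a and Wnt5b) every bound library stood above every unbound library, and in the other 6 every bound library stood below every unbound library. Of all 19563 genes tested, 31.7% lay above without overlap and 31.6% below. By the edgeR call (adjusted p under 0.05) the ligands counted 3 higher, 5 lower and 1 not called (Wnt10a), where 31.0% of all genes were called higher, 30.7% lower and 61.7% in either direction. With other processing or 1 library left out, 2 or 3 ligands were called higher and 3 to 6 lower. Wnt7a, Wnt5a, Wnt7b and Wnt9a were called under all 14 alternatives tried, Wnt2, Wnt3 and Wnt4 under 13, and Wnt5b under 9. Since these values chose the genes, nothing is read from those counts. In bulk RNA, fewer cells of a type and less RNA per cell cannot be told apart. Levels below are CPM, counts scaled to a common library size by TMM, and log2 fold changes are given as bound minus unbound, each with its standard error (SE).

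**Figure D1:**
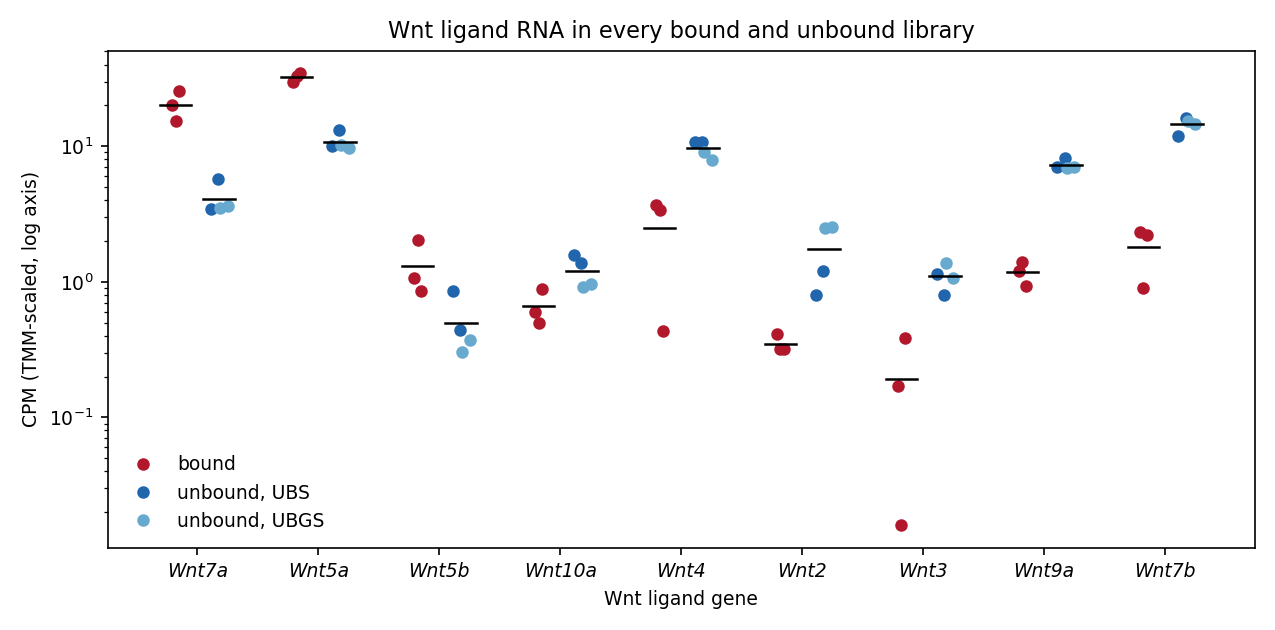
CPM (log axis) of each of the 9 Wnt ligand genes in every library, with bound libraries left of unbound libraries, UBS and UBGS libraries in separate blues, and a black line at each group's mean. Bound points stand above unbound points for Wnt7a, Wnt5a and Wnt5b and below them for the other 6 genes, with Wnt3 and Wnt4 each held apart within the bound group by 1 low library.

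The Wnt7 pair went in opposite directions. Wnt7a (ENSMUSG00000030093, chr6:91363981-91411363, minus strand), which is known to promote presynaptic assembly and spine growth, had 20.2, 15.3 and 25.4 CPM in bound libraries, against 3.44, 5.75, 3.52 and 3.63 CPM in unbound libraries. All bound libraries were well above the highest unbound library, which was replicate 2. The means were 20.3 ± 5.07 CPM in bound libraries and 4.08 ± 1.11 CPM in unbound libraries (SD, n = 3 and 4), a 4.95-fold difference (log2 2.31, SE 0.22). Wnt7b (ENSMUSG00000022382, chr15:85535437-85582473, minus strand), known for its part in dendrite growth of hippocampal neurons, had 2.31, 0.896 and 2.22 CPM in bound libraries, against 11.9, 16.2, 15.5 and 14.7 CPM in unbound libraries. Every bound library was far below the lowest unbound library, and bound replicate 2 was the lowest. Wnt7b was 8.10-fold lower in bound libraries (log2 -3.02, SE 0.29), at 1.81 ± 0.792 CPM in bound libraries and 14.6 ± 1.87 CPM in unbound libraries. The exons of Wnt7b overlap those of the antisense gene AU022754 over 6.6% of their length. That gene had 9, 24 and 8 counts in bound libraries, beside 135, 56 and 98 counts of Wnt7b. In unbound libraries it had 12 to 46 counts, beside 405 to 692 counts of Wnt7b.

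The same pair can be read within each library, where scaling between libraries plays no part. Per kb of exon, Wnt7a was 13.5, 26.3 and 17.6 times as abundant as Wnt7b in bound libraries, and 0.446, 0.549, 0.352 and 0.382 times as abundant in unbound libraries. Wnt7a was thus the higher of the pair in every bound library and the lower of the pair in every unbound library. Wnt5a over Wnt5b gave 9.52, 5.53 and 13.6 in bound libraries, against 4.01, 9.999, 11.2 and 8.84 in unbound libraries, with the groups overlapping.

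Both Wnt5 genes were higher in bound libraries, at very different levels. Wnt5a (ENSMUSG00000021994, chr14:28504750-28527448, plus strand), a ligand known for signalling through Ror receptors without beta-catenin, had 29.8, 32.9 and 34.5 CPM in bound libraries, against 10.1, 13.1, 10.1 and 9.65 CPM in unbound libraries. The bound libraries were close to each other and all above the unbound ones, of which replicate 2 was the highest. Its means were 32.4 ± 2.39 CPM in bound libraries and 10.7 ± 1.58 CPM in unbound libraries, a 3.01-fold difference (log2 1.59, SE 0.13). The antisense gene Gm2670 overlaps 4.6% of the exons of Wnt5a and had 55 to 79 counts in bound libraries and 6 to 9 in unbound libraries, against 1520 to 2054 and 343 to 560 counts of Wnt5a. The strand setting of the counting is not given in the sources used here, so reads of these overlaps cannot be assigned to one gene.

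Wnt5b (ENSMUSG00000030170, chr6:119432531-119544347, minus strand), the paralog of Wnt5a, rested on few reads: 62, 126 and 38 counts in bound libraries, and 29, 19, 13 and 15 counts in unbound libraries. In CPM these were 1.06, 2.02 and 0.862 in bound libraries, against 0.852, 0.444, 0.305 and 0.370 in unbound libraries. Bound replicate 3 (0.862 CPM) was barely above unbound replicate 1 (0.852 CPM), so the separation of the groups hangs on that pair of libraries. The 2.68-fold difference (log2 1.42, SE 0.49) had a log2 of 0.98 without bound replicate 2. It was not called without that library, without unbound replicate 2, 3 or 4, or with UBS alone as unbound. Bound replicate 2 also held the most RNA of microglia: the 6 microglial markers (6 of 6 higher in bound) summed to 186.2, 429.5 and 147.1 CPM in bound libraries and to 52.9 to 74.0 CPM in unbound libraries, the same order of the bound libraries as for Wnt5b. That order also held for Wnt9a and for Wnt2b, another Wnt ligand gene, both lower in bound libraries. The part of microglia in the Wnt5b difference was not tested.

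Among the ligands lower in bound libraries, Wnt9a and Wnt4 were well covered in unbound libraries, with 240 to 352 and 323 to 461 counts. In bound libraries Wnt9a rested on 70, 88 and 41 counts. Wnt9a (ENSMUSG00000000126, chr11:59306928-59333552, plus strand), known from joint formation, had 1.198, 1.41 and 0.930 CPM in bound libraries, against 7.05, 8.22, 6.88 and 7.04 CPM in unbound libraries. The groups were far apart, and unbound replicate 2 was the highest library. Wnt9a was 6.15-fold lower in bound libraries (log2 -2.62, SE 0.21). Wnt4 (ENSMUSG00000036856, chr4:137277489-137299726, plus strand), known from kidney and female gonad development, had 3.71, 3.36 and 0.431 CPM in bound libraries, against 10.8, 10.8, 9.02 and 7.97 CPM in unbound libraries. Bound replicate 3 stood apart from the other bound libraries, with 19 counts (exact Poisson 95% interval 11.4 to 29.7) beside 217 and 210. Wnt4 was 3.80-fold lower in bound libraries (log2 -1.93, SE 0.50), and the log2 value was -1.45 without bound replicate 3.

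Wnt2, Wnt3 and Wnt10a were low everywhere, and only Wnt3 fell under the limit set for reading a group, a mean of 10 counts. Wnt2 (ENSMUSG00000010797, chr6:17988940-18030585, minus strand), known from lung development and placenta, had 24, 20 and 14 counts in bound libraries, against 27, 51, 106 and 103 counts in unbound libraries. In CPM, bound libraries had 0.411, 0.320 and 0.317, against 0.793, 1.19, 2.49 and 2.54 in unbound libraries. The UBS libraries lay between the bound and the UBGS libraries: log2 was -2.32 (SE 0.49) against all unbound libraries, -1.50 against UBS alone and -2.82 against UBGS alone.

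Wnt3 (ENSMUSG00000000125, chr11:103774150-103817957, plus strand), known to promote neuron birth from adult hippocampal progenitors, had 10, 1 and 17 counts in bound libraries, against 39, 34, 59 and 43 counts in unbound libraries. Its mean bound count was 9.33, and it is too low to read in the bound group. The single count of bound replicate 2 has an exact Poisson 95% interval of 0.0 to 5.6. The fitted log2 of -2.56 (SE 0.73) moved to -3.53 without bound replicate 3 and to -1.99 without bound replicate 2, so its size rested on single libraries.

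Wnt10a (ENSMUSG00000026167, chr1:74791516-74804179, plus strand), known from tooth and hair development, had 35, 31 and 39 counts in bound libraries, against 54, 59, 39 and 39 counts in unbound libraries. The raw counts of bound replicate 3 and of both UBGS libraries were equal, and after scaling they stood at 0.884 CPM in that bound library and at 0.916 and 0.963 CPM in the UBGS libraries. The groups thus separated only through the scaling. Wnt10a was the one ligand not called, at 1.84-fold lower in bound libraries (log2 -0.88, SE 0.40), with a log2 of -0.45 when library totals were used without TMM.

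Levels of different genes can be compared only per length, so CPM was divided by kb of merged exons. In bound libraries Wnt7a (6.40 ± 1.60 CPM per kb) and then Wnt5a (4.14 ± 0.306 CPM per kb) led, and each was separate from the next gene in every library. Wnt4, Wnt5b, Wnt7b, Wnt9a and Wnt10a followed between 0.597 and 0.267 CPM per kb, each overlapping its neighbour in that order, then Wnt2 at 0.155 and Wnt3 at 0.0621 CPM per kb. In unbound libraries Wnt7b (2.97 ± 0.383 CPM per kb), Wnt4 (2.30 ± 0.332 CPM per kb) and Wnt9a (2.19 ± 0.187 CPM per kb) led with overlapping libraries and were separate from the rest. Wnt5a and Wnt7a came next at 1.37 and 1.29 CPM per kb, and Wnt2, Wnt10a, Wnt3 and Wnt5b ended the order between 0.778 and 0.186 CPM per kb, each overlapping its neighbour.

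Summed over all 19 ligand genes, Wnt RNA amounted to 13.5, 12.3 and 14.7 CPM per kb in bound libraries, against 13.6, 15.7, 13.8 and 13.3 CPM per kb in unbound libraries. The sums of the groups overlapped. Wnt7a and Wnt5a together made up 75.3%, 73.5% and 84.3% of the sum in bound libraries, against 17.4%, 22.2%, 17.5% and 17.9% in unbound libraries. Wnt7b made up 2.69 ± 1.06% in bound libraries and 21.1 ± 2.32% in unbound libraries, Wnt4 4.60 ± 3.38% and 16.3 ± 1.94%, and Wnt9a 2.67 ± 0.777% and 15.6 ± 0.397%, in the same order of groups. Wnt2b, outside the 9, made up 3.44 ± 1.32% in bound libraries and 10.9 ± 2.19% in unbound libraries. Among tested protein-coding genes ranked by CPM per kb, Wnt7a stood at percentile 67.9 in bound libraries and 31.5 in unbound libraries, and Wnt7b at 18.0 in bound libraries and 49.8 in unbound libraries.

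**Figure D2:**
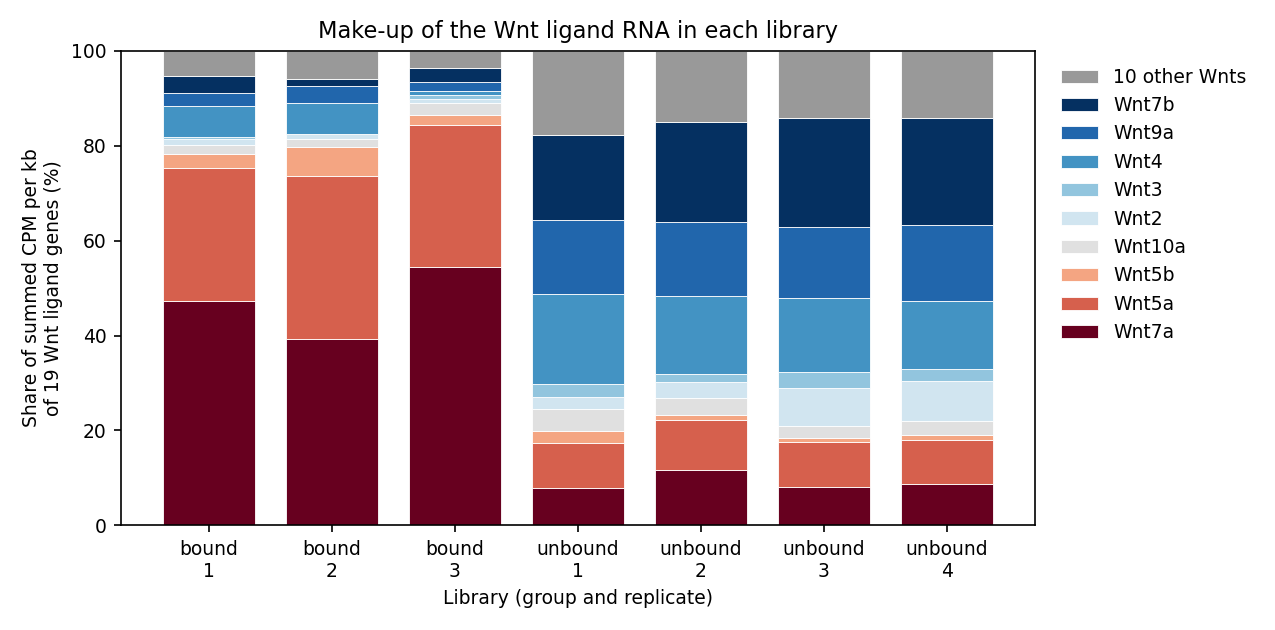
Share of each Wnt ligand gene (%) in the summed CPM per kb of 19 ligand genes, 1 stacked bar per library, bound libraries left of unbound libraries. The 2 dark red and red segments at the bottom, Wnt7a and Wnt5a, fill 73.5% to 84.3% of bound bars and 17.4% to 22.2% of unbound bars, where Wnt7b, Wnt9a and Wnt4 take most of the room.

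Promoters are shown for one ligand on each side, Wnt7a (higher in bound libraries) and Wnt9a (lower in bound libraries). The windows are from RefSeq on GRCm38.p6, on the strand of the gene, from upstream of the annotated start to shortly after it, at chr6:91411304-91411603 (minus strand) and chr11:59306680-59306979 (plus strand). Capitals mark GGGCGG, the core of the GC box, on either strand (CCGCCC).
Wnt7a: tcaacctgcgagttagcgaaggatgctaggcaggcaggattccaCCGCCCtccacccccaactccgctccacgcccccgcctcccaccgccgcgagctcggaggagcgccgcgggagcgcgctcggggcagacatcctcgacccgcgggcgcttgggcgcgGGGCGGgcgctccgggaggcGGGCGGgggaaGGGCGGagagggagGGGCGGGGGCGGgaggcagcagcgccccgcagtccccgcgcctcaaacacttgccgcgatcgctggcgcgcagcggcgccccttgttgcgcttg
Wnt9a: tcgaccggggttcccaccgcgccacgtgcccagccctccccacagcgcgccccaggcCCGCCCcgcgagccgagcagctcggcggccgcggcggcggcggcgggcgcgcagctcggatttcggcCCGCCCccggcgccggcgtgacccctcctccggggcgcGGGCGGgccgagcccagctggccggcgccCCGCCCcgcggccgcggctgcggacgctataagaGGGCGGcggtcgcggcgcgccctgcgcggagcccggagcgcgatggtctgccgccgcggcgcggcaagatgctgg
The Wnt7a window held 6 GGGCGG matches at 76.0% GC and the Wnt9a window held 5 at 83.3% GC, where 35.7% of 32851 promoter windows held at least 1 match and the median GC was 52.7%. Both windows held 0 matches to CTTTGA, the core of the site that Tcf and Lef factors bind, which 16.0% of windows held on either strand. Likewise they held 0 matches to the TATA box letters TATAAA, which 13.6% of windows held. RefSeq promoter windows were matched for 6 of the 9 ligands. Among them a window of Wnt5b, at chr6:119449337-119449636, held 1 match to CTTTGA. These matches are letters in a window and say nothing on which factors act there.

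Of the 10 Wnt ligand genes outside the 9, 4 passed the filter and 1 was called, where 61.7% of all genes were called in either direction. Wnt2b, a ligand of the beta-catenin branch, fell 3.33-fold in bound libraries, to 1.91 ± 0.597 CPM against 6.41 ± 1.22 CPM in unbound libraries (log2 -1.74, SE 0.26, edgeR adjusted p = 0.00017). Wnt1, Wnt8b and Wnt16 had log2 values of -0.65, -1.86 and -0.58 (edgeR adjusted p = 0.39, 0.18 and 0.48). With 0, 6 and 9 counts in bound libraries, Wnt8b is too low to read in the bound group. Wnt16 was lowest in the same bound library as Wnt4, with 40, 20 and 2 counts in bound libraries, against 20, 20, 26 and 19 counts in unbound libraries. Wnt3a and Wnt8a had 0 counts in all 7 libraries, which allows up to 3 counts in each. Wnt6, Wnt9b, Wnt10b and Wnt11 did not pass the filter. With no filter, 4 of the 10 genes were called lower, where 6636 of 28737 genes were. Some ligands lie beside another on the chromosome: Wnt6 is 6193 nt from Wnt10a on chromosome 1, and on chromosome 11 Wnt3a is 16175 nt from Wnt9a and Wnt9b is 24328 nt from Wnt3. In these pairs the neighbour outside the 9 had at most 20, 0 and 34 counts in any library.

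The rest of the pathway was read in 97 genes other than the 9 ligands, of which 84 were tested. These lists were chosen with earlier results of these data known, and the p-values take no account of that choice. In bound libraries 15 rose and 38 fell (edgeR, adjusted p under 0.05), with 31 not called, where 31.0% of all genes were called higher and 30.7% lower. Their median log2 was -0.46, where the median of all genes tested was -0.0075. With library totals in place of TMM 25 rose and 28 fell, where 9284 of all 19563 genes were called higher and 3704 lower. The median of all genes moved to 0.43. Only list counts that did not stay within 1.5 times under that scaling are given here. Called higher were 5 nuclear factors, 3 genes of lipidation and secretion, 2 Frizzled receptors, 2 polarity genes and 1 feedback target. Called lower were 1 cytoplasmic transducer, 1 gene of lipidation and secretion, 2 genes of the R-spondin list and 3 feedback targets.

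Among genes that add the lipid to Wnt proteins, move them out of the cell or inactivate them, 6 were tested. Of these, 1 rose and 2 fell (all genes: 31.0% higher, 30.7% lower), with a median log2 of -0.02. Wls, the carrier, rose to 8.53 ± 0.770 CPM in bound libraries, against 5.0 ± 0.745 CPM in unbound libraries (log2 0.77, SE 0.17, edgeR adjusted p = 0.0021). Trabd2b, a membrane protease that inactivates Wnt proteins, fell by 2.20 on the log2 scale, and Tmed5, a cargo receptor of the secretory pathway, fell by 0.78 (edgeR adjusted p = 0.00013 and 0.00055). The exons of Tmed5 overlap Mtf2 over 5.1% of their length. Tmed10, another cargo receptor and the highest gene of the list per kb, had 92.5 ± 3.13 CPM in bound libraries and 82.9 ± 7.30 CPM in unbound libraries (log2 0.16, edgeR adjusted p = 0.11).

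Of 9 Frizzled receptors tested, 1 rose in bound libraries and 5 fell, with a median log2 of -0.84; over all genes 31.0% were called higher and 30.7% lower. Fzd1 was the one that rose, to 19.5 ± 1.91 CPM in bound libraries, against 7.16 ± 0.337 CPM in unbound libraries (log2 1.44, SE 0.12, edgeR adjusted p = 1.4e-06). Fzd2, Fzd7 and Fzd6 fell, with log2 values of -4.83, -3.74 and -2.36 (edgeR adjusted p = 1.8e-05, 1.4e-05 and 0.00032). Fzd2 had 5, 1 and 6 counts in bound libraries, against 88, 99, 79 and 86 in unbound libraries, so its bound level is close to the floor. Fzd3, the highest per kb, fell by 0.84 (edgeR adjusted p = 0.00033). The exons of Fzd6 overlap a long noncoding RNA over 3.2% of their length.

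Of the 8 co-receptors, 1 rose and 4 fell (all genes: 31.0% higher, 30.7% lower), with a median log2 of -0.74. Reck, which with Adgra2 forms the co-receptor for Wnt7a and Wnt7b on brain endothelium, fell to 0.875 ± 0.382 CPM in bound libraries, against 8.34 ± 0.473 CPM in unbound libraries (log2 -3.27, SE 0.28, edgeR adjusted p = 1.9e-06). Adgra2 stood at 4.77 ± 3.50 CPM in bound libraries and 4.14 ± 0.208 CPM in unbound libraries (log2 0.19, edgeR adjusted p = 0.69), and its log2 was -0.57 without bound replicate 3. Ror1, a receptor of Wnt5a, fell by 2.63, and Lrp6, the co-receptor of the beta-catenin branch and the highest of the list per kb, fell by 1.37 on the log2 scale (edgeR adjusted p = 5.8e-06 and 1.8e-06). Ror2 was called higher on 29, 25 and 12 counts in bound libraries, against 2, 1, 2 and 10 in unbound libraries (log2 2.03, edgeR adjusted p = 0.038), a call lost with DESeq2, with no filter, with UBGS alone, and without unbound replicate 1, 2 or 3 or bound replicate 1 or 2 (log2 between 1.43 and 2.03).

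Of 12 secreted and membrane inhibitors tested, 2 rose and 5 fell (all genes: 31.0% higher, 30.7% lower), with a median log2 of -1.42. Dkk3, a secreted Dickkopf family member, fell 10.5-fold, to 35.6 ± 3.32 CPM in bound libraries against 375.2 ± 21.6 CPM in unbound libraries (edgeR adjusted p = 4.6e-10). Sfrp2, a secreted Frizzled-related protein that binds Wnt ligands, rose 9.38-fold, to 9.17 ± 1.84 CPM in bound libraries against 0.962 ± 0.576 CPM in unbound libraries (edgeR adjusted p = 5.2e-05). Sfrp2 had 8, 33, 58 and 60 counts in unbound replicates 1 to 4, lower in the UBS than in the UBGS libraries, and its exons overlap an antisense gene over 16.1% of their length. Frzb, another member of that family, fell by 2.85 on the log2 scale (edgeR adjusted p = 2.2e-07). The other inhibitor that rose was Wif1, which binds Wnt ligands directly, with 76, 129 and 101 counts in bound libraries, against 8, 6, 19 and 8 in unbound libraries (log2 2.87, edgeR adjusted p = 0.00028).

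R-spondins, which raise the number of Frizzled receptors at the membrane by way of Lgr receptors and the ligases Znrf3 and Rnf43, split. Of 9 genes of this group tested, 2 rose and 4 fell (all genes: 31.0% higher, 30.7% lower), with a median log2 of -0.41. Rspo2, Rspo3 and Znrf3, the last the highest per kb, fell, with log2 values of -1.62, -0.80 and -0.68 (edgeR adjusted p = 7.9e-05, 0.0015 and 0.012). With library totals the values of Rspo3 and Znrf3 were -0.36 and -0.24 and no longer called, and Znrf3 was not called with UBS alone (edgeR adjusted p = 0.054) or UBGS alone (edgeR adjusted p = 0.08). Rnf43 fell by 2.49 (edgeR adjusted p = 0.022) on 11, 64 and 0 counts in bound libraries, against 88, 133, 84 and 71 in unbound libraries, a call lost with DESeq2, with UBS alone, with UBGS alone, without bound replicate 1 and without unbound replicate 2 (log2 between -2.13 and -2.76). The genes that rose, named after their values were seen, were Rspo1 and Rspo4. Rspo1 had overlapping libraries, with 103, 38 and 61 counts in bound libraries against 5, 21, 31 and 18 in unbound libraries (log2 1.45, edgeR adjusted p = 0.040). That call was lost with UBS alone, with UBGS alone, and without unbound replicate 1, 2 or 4 or bound replicate 1 or 3 (log2 between 1.10 and 1.94). Rspo4 had 78, 35 and 24 counts in bound libraries and 0 counts in all unbound libraries, which makes it at least 10.7-fold higher against a floor of 3 counts per unbound library. The median of the list stayed -0.41 with Rspo4 at that bound.

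**Figure D3:**
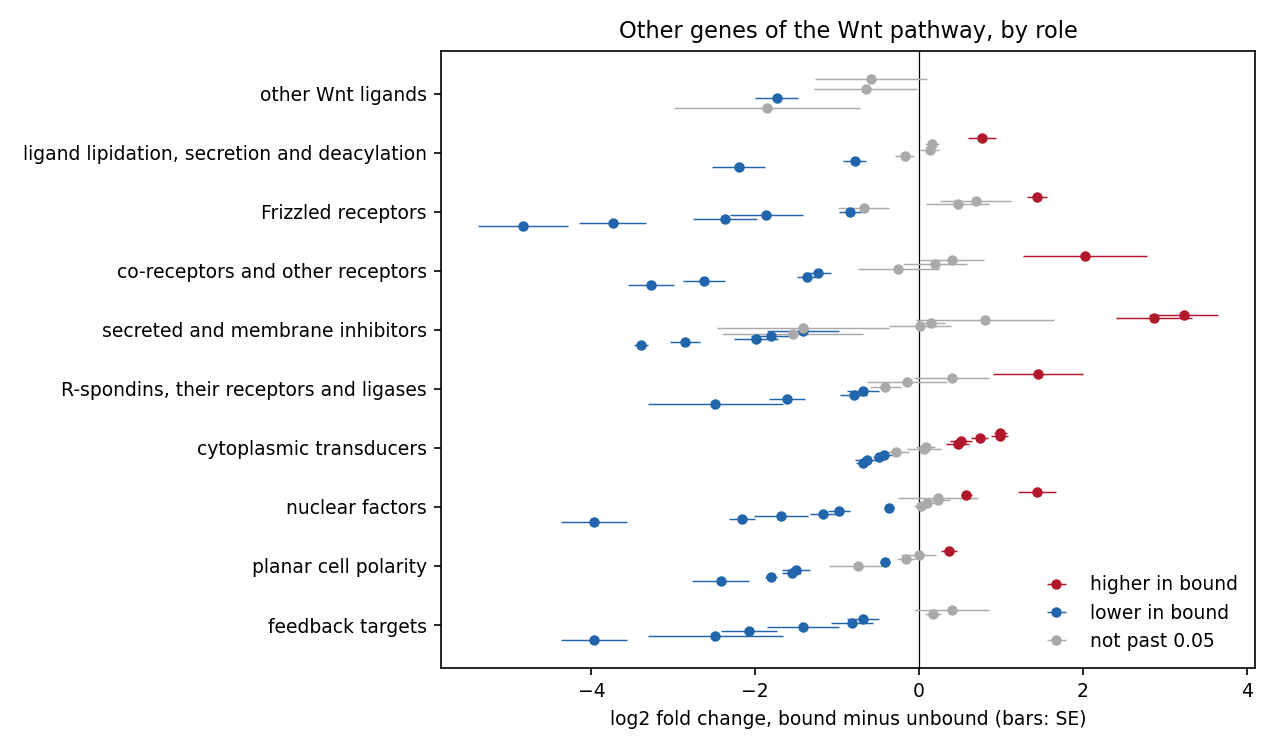
Log2 fold change (bound minus unbound, bars SE) of each tested pathway gene outside the 9 ligands, 1 row of points per role, coloured by the edgeR call; Rspo4, with 0 counts in unbound libraries, is not drawn. Frizzled receptors, co-receptors, inhibitors, polarity genes and feedback targets lie mostly left of 0. Cytoplasmic transducers lie on both sides of 0, between -0.68 and 0.99.

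Of 12 cytoplasmic transducers, 5 rose and 4 fell, with a median log2 of 0.07 and every log2 value between -0.68 and 0.99, where 61.7% of all genes were called in either direction. Gsk3a, a kinase that marks beta-catenin for destruction and the highest of the list per kb, rose by 0.99, Dvl3, an adaptor downstream of Frizzled, by 0.99, and Apc2, a scaffold of the destruction complex, by 0.74 on the log2 scale (edgeR adjusted p = 1.3e-06, 9.1e-06 and 7.6e-05). The exons of Gsk3a overlap an antisense gene over 28.3% of their length, and its value is uncertain for that reason. The paralogs Gsk3b and Apc went the other way, with log2 values of -0.49 and -0.68 (edgeR adjusted p = 0.00022 and 2.7e-05). Ctnnb1, the gene of beta-catenin, fell too (log2 -0.42, edgeR adjusted p = 0.0017), and its exons overlap another gene over 14.6% of their length. With library totals 1 transducer was called lower.

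Of 12 nuclear factors, 2 rose and 6 fell (all genes: 31.0% higher, 30.7% lower), with a median log2 of -0.17. Lef1, like Tcf7, Tcf7l1 and Tcf7l2, binds DNA beside beta-catenin. Lef1 fell to 0.160 ± 0.0460 CPM in bound libraries, against 2.57 ± 0.655 CPM in unbound libraries. Its log2 was -3.97 (SE 0.40, edgeR adjusted p = 7.3e-06). It had 12, 10 and 5 counts in bound libraries, against 65, 93, 121 and 136 in unbound libraries, so its bound level is close to the floor. The exons of Lef1 overlap an antisense gene over 13.7% of their length. Tcf7l2 and Tcf7l1 fell, with log2 values of -2.16 and -1.68 (edgeR adjusted p = 5.8e-07 and 0.0011). Tcf7 had 1.63 ± 1.41 CPM in bound libraries and 1.39 ± 0.204 CPM in unbound libraries (log2 0.24, edgeR adjusted p = 0.69), with a log2 of -0.75 without bound replicate 2. Bcl9, a beta-catenin co-factor and the highest per kb, rose by 0.58 (edgeR adjusted p = 2.4e-05).

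Planar cell polarity genes counted 1 higher and 5 lower of 9 (all genes: 31.0% higher, 30.7% lower), with a median log2 of -0.75. Celsr1, a cadherin of the polarity complex, fell by 2.42, and Prickle2 and Prickle1, cytoplasmic polarity proteins, fell, with log2 values of -1.80 and -1.56 (edgeR adjusted p = 0.00011, 1.1e-08 and 5.8e-07). Prickle2 was the highest of the list per kb, at 78.2 ± 6.73 CPM in bound libraries and 273.1 ± 5.09 CPM in unbound libraries.

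Feedback targets, genes that beta-catenin signalling is known to induce, counted 0 higher and 6 lower of 8 tested by edgeR, with a median log2 of -1.12, where 31.0% of all genes were called higher and 30.7% lower. With UBS alone or UBGS alone as unbound, 2 were called lower. The list shares Lef1, Rnf43, Znrf3, Apcdd1, Lgr5 and Notum with the other lists, so its counts and median repeat part of theirs. Of the 6 called lower here, Lef1, Rnf43, Znrf3 and Apcdd1 are counted in those lists too, and only Nkd1 and Nkd2 are not. The total over 97 genes counts each gene once. Nkd2, an inhibitor of Dishevelled, fell by 2.07 on the log2 scale (edgeR adjusted p = 0.0003). Axin2, the target most often used as a readout of the pathway, had 18.6 ± 0.656 CPM in bound libraries and 16.5 ± 1.14 CPM in unbound libraries (log2 0.17, edgeR adjusted p = 0.17). With library totals it was called higher (log2 0.61, edgeR adjusted p = 0.00037).

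Library totals ran from 38690380 to 51953811 counts. The labels were checked on Gad2, at 721.9 to 758.3 CPM in bound libraries and 111.7 to 189.5 CPM in unbound libraries, and on Slc17a7, a transporter of excitatory neurons, at 12.9 to 17.6 CPM in bound libraries and 487.1 to 525.3 CPM in unbound libraries. Besides the 6 GABAergic markers, 6 of 6 microglial markers were higher in bound libraries. Markers of other cells that can make or answer Wnt ligands were lower in bound libraries. The 5 choroid plexus markers (5 of 5 lower) summed to 13.9 to 52.7 CPM in bound libraries and 989.6 to 1716 CPM in unbound libraries, with Folr1 and Kcnj13 at 0 in at least 1 bound library. The 5 meningeal fibroblast markers (5 of 5 lower) summed to 3.62 to 6.39 CPM in bound libraries and 203.8 to 219.1 CPM in unbound libraries, with Lum at 0 in at least 1 bound library. The 6 astrocyte markers (5 of 6 lower) summed to 227.1 to 248.9 CPM in bound libraries and 1899 to 2811 CPM in unbound libraries, and the 6 endothelial and mural markers (4 of 6 lower) to 18.9 to 30.5 and 102.7 to 119.1 CPM. The 6 excitatory neuron markers (6 of 6 lower) summed to 754.1 to 951.2 CPM in bound libraries and 3637 to 5729 CPM in unbound libraries. The part of these cells in the values of the ligands and of the pathway lists was not tested.

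Exon length moved with the fold change across genes. The median log2 was 0.59 for protein-coding genes of 1000 to 2000 nt, 0.17 for those of 2000 to 4000 nt and -0.15 for those of 4000 to 8000 nt. The 9 ligands span 2255 nt (Wnt2) to 7823 nt (Wnt5a). The part of length in their values was not tested.

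The ligands were also compared between the UBS and UBGS series. The split into these series was no part of the rule, but the same 4 unbound libraries entered the choice of the ligands. By edgeR 0 of 9 ligands were called, and by DESeq2 also 0, where edgeR called 44 of 19256 genes (0.229%). At an unadjusted p under 0.05, 2 ligands passed, against 16.8% of all genes. Wnt2 had a mean of 0.872 CPM in UBS libraries and 2.21 CPM in UBGS libraries (log2 UBS minus UBGS -1.33, SE 0.29, edgeR adjusted p = 0.16), lower in both UBS libraries than in both UBGS libraries. Wnt4 had 9.48 CPM in UBS libraries and 7.47 CPM in UBGS libraries (log2 0.34, SE 0.13, edgeR adjusted p = 0.27). These results depended on 1 library: without unbound replicate 1 edgeR called 4 ligands and 4684 genes, and without unbound replicate 2 it called 5 ligands and 7389 genes. Against UBS alone and against UBGS alone as the unbound group, the 9 ligands kept the signs of their bound minus unbound log2 values.

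For each ligand, the protein-coding genes with the most similar pattern over the 7 libraries were found by Pearson's r of log2 CPM among 10506 genes with a mean of at least 5 CPM. For Wnt7a these were Clip2 (r = 0.998) and Nenf (r = 0.997), and for Wnt5a Kif21b and Mypop (r = 0.998 each). For Wnt7b they were Gpt2 (r = 0.999) and Eea1 (r = 0.998), and for Wnt9a Enc1 and Ylpm1 (r = 0.999 each). For Wnt5b they were Myo5b (r = 0.991) and Ly86 (r = 0.985). Ly86 is a gene of myeloid cells. Wnt4 was closest to Galnt16 and Sirt1, Wnt2 to Akap8 and Phf20, Wnt3 to Lonrf1 and Prrc2c, and Wnt10a to Dcaf5 and Clasp1. The 7 points share 2 groups and the same libraries, and the number of genes with r above 0.95 ran from 34 for Wnt5b to 1790 for Wnt9a, so a close match is common for a ligand that mainly separates the groups.

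**Figure D4:**
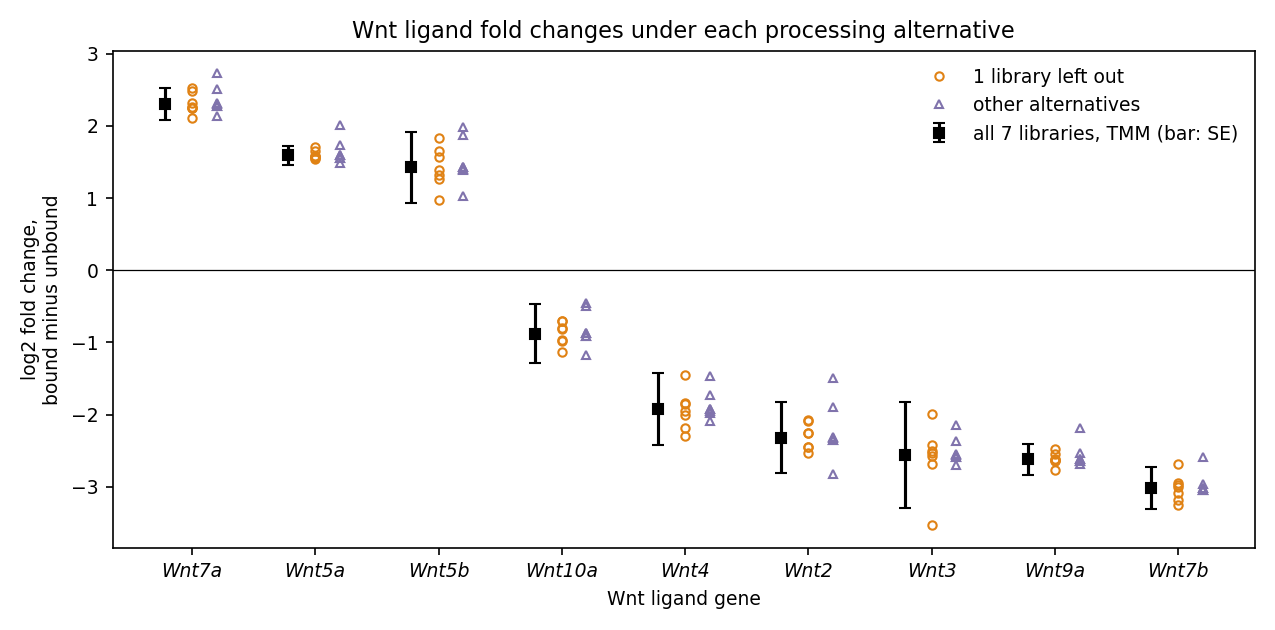
Log2 fold change (bound minus unbound) of each Wnt ligand gene with all 7 libraries (black square, bar SE), with 1 library left out at a time (orange circles) and under the other processing alternatives (purple triangles). The 9 genes stayed on their side of 0 under all 14 alternatives, with the widest range for Wnt3, between -3.53 and -1.99.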

How the data were processed

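RNA was sequenced in 7 hippocampal TRAP libraries. The deposited table holds raw counts per gene, made with STAR 2.5.3a and HTSeq on mm10, per the submitters' processing notes. The sources used here do not give the annotation release, the strand setting or how reads with several matches were treated. IDs were named with GENCODE M21 (37693 of 39017 matched), which uses the same assembly.

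The counts were tested with edgeR 4.0.16 in R 4.3.3 (filterByExpr, TMM, robust quasi-likelihood fit) over 19563 genes, with Benjamini-Hochberg adjustment and a threshold of 0.05. UBS and UBGS libraries were compared in a fit of the 4 unbound libraries, with CPM scaled in that fit. The script was tested on simulated counts with as many genes changed up as down, which cannot check the choice of scaling. DESeq2 1.42.0, other scalings, no filter, each unbound series alone and each library left out were alternatives. A ligand was too low to read in a group with a mean under 10 counts. Poisson intervals cover counting error only, and levels per length used merged exons.

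The 9 ligands and the pathway and marker lists were chosen with earlier results of these data known. All 9 ligands are given, and of each pathway list the gene highest per kb and the 3 called genes that changed most (mean 1 CPM or more). Fzd1, Adgra2, Ror2, Wif1, Rspo1, Rspo4, Tcf7, Axin2, Gsk3b, Apc and Ctnnb1 were added after their values were seen. A planned comparison of the proteins was not made, as no protein sequences were used here.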

Additional observations from a re-analysis of the deposited data

Results flagged for a closer look

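The 9 ligands and 41 named pathway genes, without Gsk3b, Apc and Ctnnb1, were checked by Dixon's criterion, which chance meets in about 1 in 20 groups. Among them 7 genes had 1 unbound library far from the other 3. Wnt7a had 5.75 CPM in unbound replicate 2, against 3.44 to 3.63 CPM in the other unbound libraries. Wnt5a had 13.1 CPM in the same library, against 9.65 to 10.1 CPM, and Wnt9a had 8.22 CPM there, against 6.88 to 7.05 CPM. Celsr1 had 4.85 CPM in unbound replicate 1, against 3.33 to 3.41 CPM in the others, and Tmed5 had 37.4 CPM in that library, against 29.5 to 29.9 CPM. Ror2 had 0.247 CPM in unbound replicate 4, against 0.0234 to 0.0587 CPM in the others. Wnt8b had 0 CPM in unbound replicate 1, against 0.446 to 0.494 CPM in the others. Apart from Wnt8b, whose groups overlap, each of these values stayed on its side of every bound library.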

How the results depend on the processing

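The 9 ligands kept the sign of their bound minus unbound log2 value under all 14 alternatives. Library totals in place of TMM moved all genes to 9284 higher and 3704 lower (6072 and 6004 with TMM), pathway genes to 25 higher and 28 lower (15 and 38 with TMM) and the median log2 of all genes to 0.43; every sign and call is relative to that scaling. With UBS alone as unbound, 3 ligands were called lower (5 with all libraries), with UBGS alone 4 and without bound replicate 3 6; 2 in place of 3 were called higher with UBS alone, without bound replicate 2 and without unbound replicate 2, 3 or 4. Between UBS and UBGS, 44 genes were called, against 22 with library totals, 104 with no filter, 301 with DESeq2 and 16 to 7389 with 1 library left out, where the lone library of a series is assumed to vary like the others; the ligands called ran from 0 to 5. With 1 library left out, the log2 value of Wnt7a (UBS minus UBGS) ran from -0.063 (without unbound replicate 2) to 0.69, and that of Wnt7b from -0.35 to 0.10 (without unbound replicate 1); with all 4 they were 0.37 and -0.10. The cause was not tested. Of 574 values of the 41 pathway genes named, not counting Gsk3b, Apc and Ctnnb1, 545 kept their direction and side of the threshold. Of the rest, 25 lost a call (Ror2, Rspo1, Rnf43, Znrf3, Rspo3 and Tmed5), 2 gained one (Tmed10 and Axin2) and 2 reversed. With 1 library left out, the log2 value of Adgra2 ran from -0.57 to 0.56 and that of Tcf7 from -0.75 to 0.60, neither called. Of 280 counts of single lists, 246 stayed within 1.5 times. Depth limits Wnt3, Wnt2, Wnt10a and Wnt5b, whose counts lay at or below 126 in every library. No paired analysis was possible because the bound and unbound titles share no replicate number, and the labels give the UBS and UBGS libraries only 1 number in common.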
